A study of Brassica napus with 9 samples.

Results

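The genes described here are the 2 Brassica napus genes that the study assigned to Arabidopsis thaliana STZ (AT1G27730), BnaA09g27780D on chromosome A09 and BnaC05g21480D on chromosome C05, among 101040 genes in the count table. They were taken because the study listed them together as lower after 15 min of abscisic acid (ABA) and back near the mock level by 60 min, so that pattern chose the genes and is given below as a description. The RNA came from protoplasts, cells whose walls have been digested away, prepared from guard cells of leaves of the double-haploid line DH12075. There were 3 mock-treated samples that received the ethanol solvent, 3 exposed to ABA in ethanol for 15 min and 3 exposed for 60 min, all kept under light at room temperature. Each sample was a pool of several protoplast preparations, and each replicate number joins 1 sample of every group. No mock was kept for each exposure time, so the time in the medium and the ABA exposure cannot be told apart.

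STZ, also called ZAT10, encodes a small nuclear protein with 2 zinc fingers of the C2H2 type. In Arabidopsis it acts as a repressor of transcription, its repressor domain is the EAR motif, and its own transcript is known to respond quickly to salt, cold, drought, high light and wounding. B. napus carries an A subgenome from Brassica rapa and a C subgenome from Brassica oleracea, so a single Arabidopsis gene often has a copy in each. The sources used here pair neither STZ identifier with a sequence, a length or coordinates, so levels of the copies were not compared per length and no sequence is printed.

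Total counts per library ranged from 88051359 to 123968001. The 7 genes taken here as guard cell markers, ALMT12 (an anion channel of guard cells), ATMPK12 (a guard cell MAP kinase) and ATOST1 (the SnRK2 kinase of ABA signaling), were detected in every group, and their summed level was 227 to 838 CPM in mock-treated samples, 243 to 1080 at 15 min and 639 to 2420 at 60 min. CPM is a gene's count relative to the size of its library after TMM scaling. The single mesophyll marker, CAB1 of the light-harvesting complex, was at 19.8 to 43.0 CPM in mock-treated samples and at 34.7 to 56.9 at 60 min. The guard cell sum was highest in replicate 3 and lowest in replicate 2 of each group, while CAB1 was lowest in replicate 3 of each group. That sum is mostly ALMT12 and ATMPK12. The 2 ATOST1 genes varied little in mock-treated samples, at 2.23 to 2.62 and 3.06 to 3.91 CPM, and were at 6.15 to 15.1 and 7.34 to 14.4 at 60 min. The identifiers of these markers come from the study's lists of genes that changed with ABA in the same samples, so their levels at 60 min are no independent measure of cell type. Their part in the STZ values was not tested.

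Both STZ copies were well covered, with 3729 to 20964 counts per library for BnaA09g27780D and 10272 to 39673 for BnaC05g21480D. BnaA09g27780D was at 146, 39.4 and 152 CPM in mock-treated replicates 1, 2 and 3. It was at 111, 34.3 and 91.4 CPM after 15 min of ABA. After 60 min it was at 132, 47.8 and 155 CPM. The 15-min sample was the lowest of its replicate number in 3 of 3 replicates, and by 60 min the level stood above the mock level in replicates 2 and 3 and below it in replicate 1.

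BnaC05g21480D was at 329, 112 and 289 CPM in mock-treated replicates 1, 2 and 3. It was at 236, 94.6 and 150 CPM at 15 min. It was at 228, 104 and 240 CPM at 60 min. This copy was below its mock level in 3 of 3 replicates at both times. From 15 to 60 min it was higher in replicates 2 and 3 and slightly lower in replicate 1, as the plot of STZ level in each library shows.

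**Figure D1:**
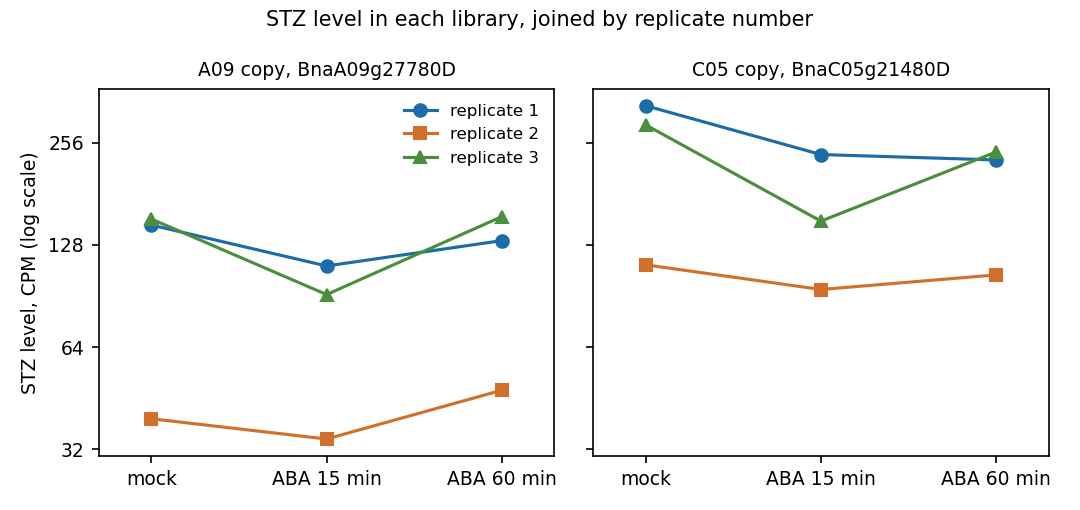
STZ level in CPM on a log axis for the A09 copy (left) and the C05 copy (right), with 1 point per library and lines joining samples of the same replicate number. Replicate 2 lies lowest in every group, at 34.3 to 47.8 CPM for the A09 copy, and every line falls from mock to 15 min.

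The ranges of the groups overlapped in part when replicate numbers were set aside, and mock-treated replicates 1 and 3 lay above all 15-min samples for both copies. The group means were 113 ± 63.6 CPM (SD, n = 3) in mock-treated cells, 78.9 ± 39.8 at 15 min and 112 ± 56.4 at 60 min for BnaA09g27780D. For BnaC05g21480D they were 243 ± 115, 160 ± 71.2 and 191 ± 75.0 CPM. The order of the group means was mock, 60 min and 15 min for both copies, and no neighbours in that order differed by more than the SD within a group. Within mock-treated samples the highest level was 3.87 times the lowest for the A09 copy and 2.94 times for the C05 copy.

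Most of the variation in STZ therefore lay between replicate numbers. On the log2 CPM scale the replicate number held 90.8% of the sum of squares of BnaA09g27780D and the treatment 7.15%. For BnaC05g21480D the replicate number held 81.7% and the treatment 12.5%. The median over all 52881 genes tested was 68.8% for the replicate number and 13.6% for the treatment. The part held by the replicate number was larger in BnaA09g27780D than in 82.0% of the genes tested, and in BnaC05g21480D than in 66.2%.

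Comparison within replicate numbers removed that part. At 15 min the log2 ratio of BnaA09g27780D to its own mock sample was -0.40, -0.20 and -0.74 in replicates 1, 2 and 3. The log2 ratio of BnaC05g21480D was -0.48, -0.24 and -0.94. In both copies the change was smallest in replicate 2, where the level was lowest, and largest in replicate 3. Of all genes tested, 14.9% were lower than mock in 3 of 3 replicates at 15 min.

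With replicate number as a block in the fit over 9 libraries, the log2 fold change at 15 min was -0.45 (standard error 0.11) for BnaA09g27780D, which is a change of -26.6%. It was -0.55 (standard error 0.13) for BnaC05g21480D, a change of -31.5%. The median over all genes tested was 0.00 to 2 decimals, and 3.99% of genes had a lower value than BnaA09g27780D and 2.61% a lower value than BnaC05g21480D. These ranks depended on the filter on low counts. They were 1.05% and 0.485% with a filter at a mean of 50 counts, and 13.6% and 12.1% with no filter. At an adjusted p-value under 0.05, edgeR's quasi-likelihood test called 0 of the 2 copies lower at 15 min, against 0.0359% of all genes tested, and 2 of 2 had an unadjusted p under 0.05, as did 5.54% of all genes tested in either direction. DESeq2's Wald test called 2 of 2, against 0.12% of the genes it fitted. The genes were chosen on this contrast, so neither count supports the change.

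At 60 min the fitted values of the copies differed, while the study listed both copies alike as changed at 15 min only. BnaA09g27780D had log2 ratios to mock of -0.15, 0.28 and 0.02 in replicates 1, 2 and 3, and a log2 fold change of 0.05 (standard error 0.11). BnaC05g21480D had ratios of -0.53, -0.10 and -0.27, below mock in 3 of 3 replicates as were 27.7% of all genes tested, and a log2 fold change of -0.30 (standard error 0.13), which is a change of -18.6%. At 60 min 10.6% of all genes were called lower and 15.2% higher, and 0 of the 2 copies were called in either direction by edgeR or by DESeq2, which called 15.3% of the genes it fitted. Both copies were chosen as changed at 15 min only in these samples, so the count of 0 is part of that choice. An unadjusted p under 0.05 was found in edgeR for 1 of the 2, BnaC05g21480D, and for 37.2% of all genes. Without replicate 1 the value of BnaC05g21480D was -0.19, and without replicate 3 it was -0.33 and was called (edgeR adjusted p = 0.0299). Under scaling by total count the values at 60 min were -0.25 and -0.59, and the median of all genes was -0.321, so the A09 copy was back near its mock level with TMM and RLE scaling and not with total count scaling, where it lay near that median.

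Between 15 and 60 min the log2 ratio of BnaA09g27780D was 0.25, 0.48 and 0.76 in replicates 1, 2 and 3. For BnaC05g21480D it was -0.05, 0.14 and 0.68. The log2 fold change was 0.49 (standard error 0.11) and 0.25 (standard error 0.13), in that order. Of all genes tested, 14.2% were called higher at 60 than at 15 min, and 1 of the 2 copies, BnaA09g27780D, was among them (edgeR adjusted p = 0.00907). With total count scaling its value was 0.24 and with no replicate block 0.50, and neither was called (edgeR adjusted p = 0.108 and 1.0). Without replicate 3 the value of BnaC05g21480D was 0.04, and without replicate 1 it was 0.40. With total count scaling the C05 value was -0.0058. The full shape, a 15-min sample below both the mock and the 60-min sample of its number in 3 of 3 replicates, was shown by BnaA09g27780D and by 4.1% of all genes tested, and BnaC05g21480D did not show it. Both copies were chosen for a fall at 15 min and a return by 60 min, so neither the call nor this shape supports the rise.

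**Figure D2:**
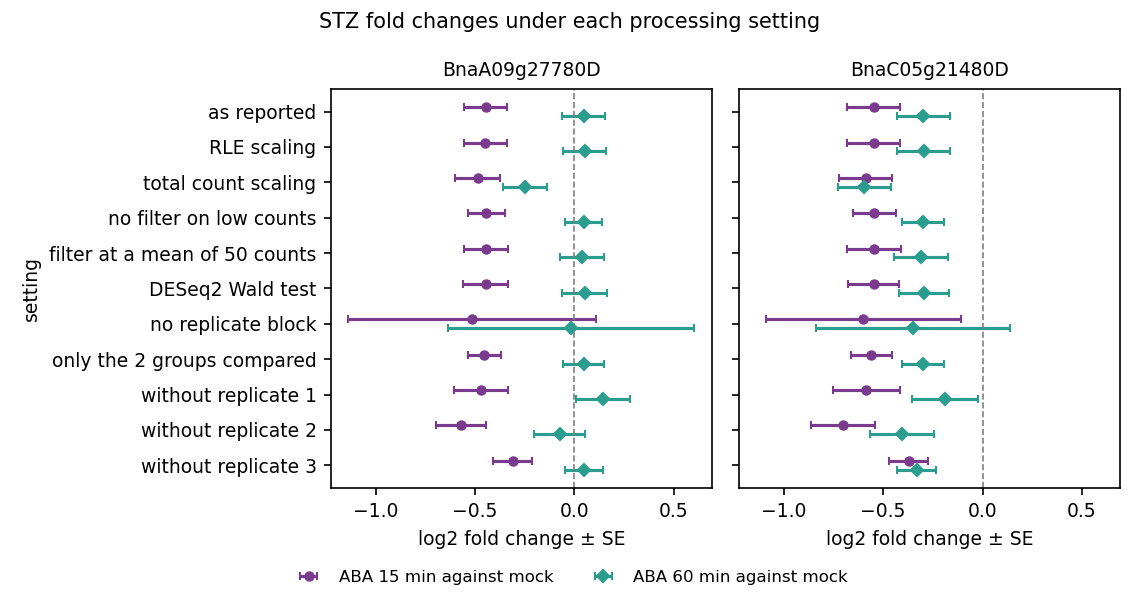
Log2 fold changes of the A09 copy (left) and the C05 copy (right) at 15 min (circles) and 60 min (diamonds) against mock under each processing setting, with bars of 1 standard error. At 15 min all values are below 0, from -0.57 to -0.31 for the A09 copy and from -0.70 to -0.37 for the C05 copy over the alternatives, and the bars are widest with no replicate block.

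The balance between the copies was then followed within each library, where it needs no scaling between libraries. The study chose each copy for its own change against mock in these same libraries. The ratio between the copies was not itself a criterion, though it is made of the same counts. Of the reads assigned to either copy, BnaA09g27780D took 30.8%, 26.0% and 34.6% in mock-treated replicates 1, 2 and 3. It took 32.0%, 26.6% and 37.8% at 15 min. It took 36.7%, 31.4% and 39.2% at 60 min. The share was lowest in mock and highest at 60 min in 3 of 3 replicates, while the ranges of the groups overlapped because replicate 2 was low and replicate 3 high throughout.

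**Figure D3:**
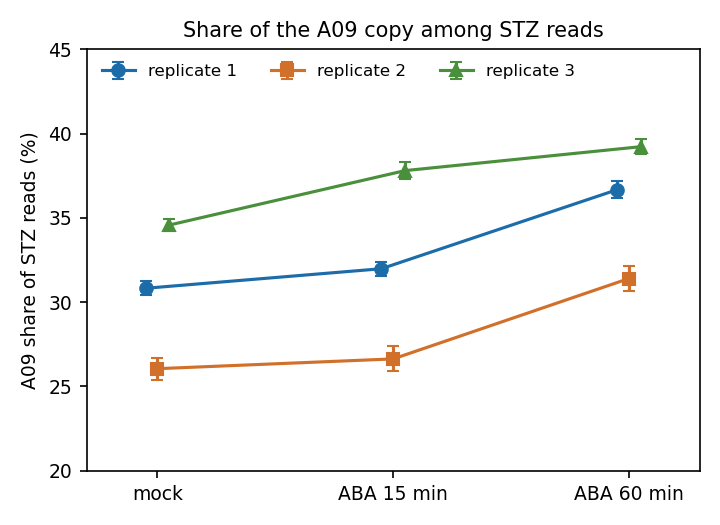
Share of the A09 copy among reads assigned to either STZ copy, in percent, with 1 point per library, lines joining samples of the same replicate number and bars for the 95% Wilson interval. The axis starts at 20%, and each line rises from mock (26.0% to 34.6%) to 60 min (31.4% to 39.2%).

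From mock to 60 min the share of BnaA09g27780D rose by 5.86, 5.36 and 4.64 percentage points in replicates 1, 2 and 3, with a mean of 5.29 ± 0.610 (SD, n = 3). The log2 ratio of BnaA09g27780D to BnaC05g21480D rose by 0.35 ± 0.05 (SD, n = 3), which is 1.27-fold. From mock to 15 min the share was higher by 1.16, 0.585 and 3.23 points. In replicate 2 that step was within counting error, since the 95% Wilson interval was 25.4% to 26.7% in mock and 25.9% to 27.4% at 15 min. From 15 to 60 min the share was higher by 4.69, 4.77 and 1.41 points. The intervals cover counting error only.

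An exact permutation test of the treatment labels within replicate numbers gave p = 0.0278 for the log2 ratio of the copies over the 3 groups, which is the smallest value the design allows. The test concerns the 3 groups together and does not say which step differed. It uses the libraries on which the copies were chosen, so it is no independent evidence of a treatment effect. Each pair of groups alone has 3 replicate pairs, for which the smallest two-sided exact p is 0.25. With the replicate numbers ignored, p was 0.432. Without any 1 replicate the smallest p the design allows is 0.167, and the change from mock to 60 min was then 0.33 to 0.38 on the log2 scale.

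No shift of that size was seen between the subgenomes as wholes. The median log2 fold change at 60 min was -0.02 over the 25249 tested genes of the A subgenome and -0.03 over the 27495 of the C subgenome. Of the reads in tested genes of both subgenomes, the A subgenome took 49.0% to 49.7% in mock-treated samples and 48.7% to 49.4% at 60 min. This comparison was added after the shares of the STZ copies had been seen. Medians and shares over whole subgenomes do not show how often a single pair of copies shifts as much, which was not tested. Only reads that fitted a single gene were counted, so reads from stretches where the STZ copies are identical would be missing from both.

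Summed, the copies were at 475, 151 and 441 CPM in mock-treated replicates 1, 2 and 3. The sum was 347, 129 and 242 CPM at 15 min. It was 359, 152 and 395 CPM at 60 min. The sum was lower at 15 min than in mock in 3 of 3 replicates and returned to the mock level in replicate 2 only.

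The levels of the copies were correlated over the libraries. Pearson's r between the log2 CPM values of BnaA09g27780D and BnaC05g21480D was 0.955 over 9 libraries, and 0.834 after the mean of each replicate number had been removed. The libraries share the 3 replicate numbers and both copies were chosen for the same pattern in them, so the values are a description. Among 41632 genes whose mean count was 50 or more, 5 had an r of at least 0.95 with the mean STZ profile after the replicate means were removed. They were BnaC08g33110D (r = 0.986), BnaC07g00380D (0.958), BnaA09g40140D (0.954), BnaC05g36680D (0.951) and BnaC02g23610D (0.95). These are the closest genes of a search over all 41632, and how many unrelated genes would reach such an r was not tested. Shared regulation with STZ was not tested either. The sources used here give no names for these genes.

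Likeness of shape did not mean likeness of size. For BnaC08g33110D, the gene most like STZ, the 15-min log2 fold change was -0.12 (standard error 0.06), against -0.45 and -0.55 for the STZ copies. BnaC05g36680D had -0.42 at 15 min (standard error 0.13), at a level of 1.61 CPM in mock-treated samples. The 5 genes depended on the processing, since 0 of them were among the first 5 when the replicate means were left in and 1 with total count scaling. For BnaA09g27780D alone the closest gene was BnaC09g14910D (r = 0.975) and for BnaC05g21480D alone it was BnaC05g36680D (r = 0.976). Both values, from a search over 41632 genes, were above the r of 0.834 between the copies on the same scale.

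The study placed 5 further genes beside STZ as lower at 15 min, chosen on the same samples. They are MAPKKK14 (BnaA05g12320D), which encodes a kinase of the MAP kinase cascades, RTNLB3 (BnaA09g11950D), a reticulon-like protein, ATMT3 (BnaC03g39060D), a metallothionein, and the genes assigned to AT1G49850 (BnaA08g02360D) and AT1G79660 (BnaC06g40000D). Their log2 fold changes at 15 min ran from -0.89 for ATMT3 to -0.44 for AT1G79660, so both STZ values lay within that range. Their mean levels in mock-treated samples were 2.24 to 12.6 CPM, and edgeR called 0 of the 5 at 15 min, where 5 of 5 had an unadjusted p under 0.05 and DESeq2 called 4. Over all genes the shares were 0.0359% called lower by edgeR, 5.54% with such a p in either direction and 0.12% called lower by DESeq2, and the 5 were chosen on this contrast. As in STZ, the 15-min change was largest in replicate 3 for MAPKKK14, AT1G49850, ATMT3 and AT1G79660, with ratios of -0.94, -0.87, -1.79 and -0.64. In RTNLB3 it was largest in replicate 1, at -1.22.

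At 60 min BnaA09g27780D, at 0.05, lay above all 5 of these genes, whose log2 fold changes ran from -0.51 for RTNLB3 to -0.11 for AT1G49850. BnaC05g21480D, at -0.30, lay within their range. These values share the mock-treated libraries, and so do the comparisons at 15 and 60 min.

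**Figure D4:**
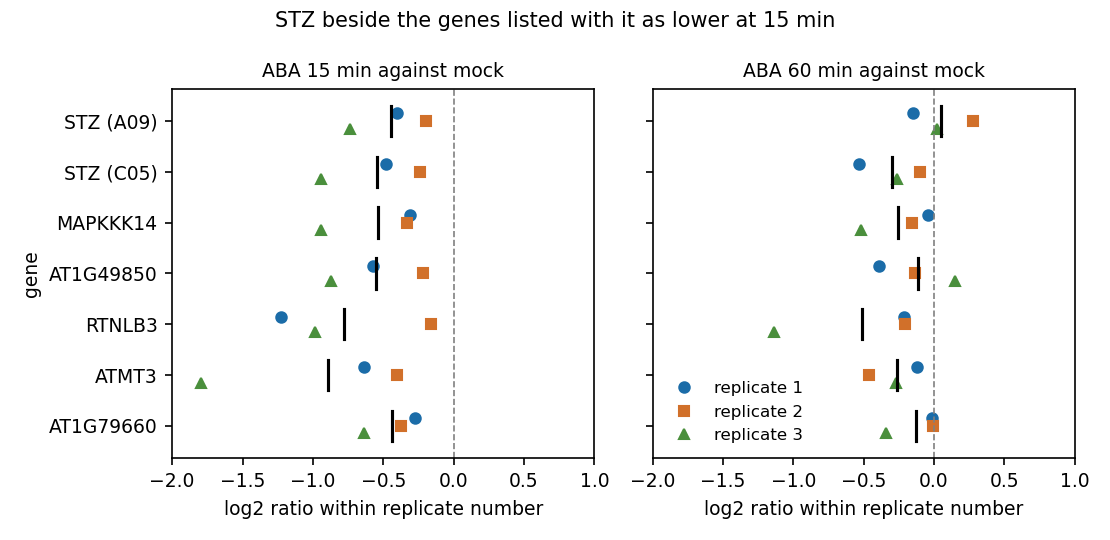
Log2 ratio to the mock sample of the same replicate number at 15 min (left) and 60 min (right) for the STZ copies and the 5 genes listed with them, with 1 point per replicate and a black bar for the log2 fold change of the model. At 15 min all points are below 0, and at 60 min the bar of the A09 copy, at 0.05, is the only one above 0.

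Genes of the ABA signaling pathway give the setting of these changes. The study chose them for large, significant changes at 60 min on the same samples. Their counts are therefore no independent evidence of direction, and their sizes and calls at 60 min follow from that choice. Among 18 receptor genes (PYR1 and PYL members, which bind ABA), 2 were called lower at 15 min, with a median log2 fold change of -0.61, where 0.0359% of all genes were called lower. The largest called fall was that of PYL4 (BnaC03g21240D), at -1.08 (standard error 0.16, edgeR adjusted p = 0.0175). Among 19 PP2C phosphatase genes, which hold the pathway off without ABA, 5 were called higher at 15 min, where 0.395% of all genes were called higher. The largest rise was that of AHG3 (BnaA01g37370D), at 3.35 (standard error 0.44, edgeR adjusted p = 0.00906). Of the 11 genes for bZIP factors of the ABF and ABI5 type, which switch on ABA-responsive genes, edgeR and DESeq2 each called 0 at 15 min. In edgeR 4 of the 11 had an unadjusted p under 0.05, as did 5.54% of all genes tested. Of the 2 ATOST1 genes 0 were called by either tool and 0 had such a p. Over all genes DESeq2 called 521 of 78105 at 15 min, and edgeR the small shares above. Counts of 0 called among so few genes therefore do not show a lack of response. The STZ changes at 15 min were close in size to the median of the receptors and opposite in sign to the median of the phosphatases, which was 0.63.

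By 60 min 17 of the 18 receptor genes were called lower, as were 10.6% of all genes, and 1 was called higher. The largest fall was that of PYL6 (BnaA05g05420D), at -5.72 (standard error 0.485, edgeR adjusted p = 2.45e-05), and the gene called higher was PYL9 (BnaA10g00540D), at 1.18 (standard error 0.08, edgeR adjusted p = 6.71e-06). All 19 listed phosphatase genes, all 11 listed bZIP genes and both listed ATOST1 genes were called higher at 60 min, as were 15.2% of all genes. The larger rise of the ATOST1 genes was that of BnaA01g03110D, at 2.02 (standard error 0.18, edgeR adjusted p = 3.43e-05). The largest rise among the phosphatases was that of AIP1 (BnaC05g05180D) and among the bZIP genes that of ABF3 (BnaC07g44670D), with log2 fold changes of 6.46 and 3.93 (each with a standard error of 0.27, edgeR adjusted p = 1.16e-06 and 8.78e-06). The log2 fold changes of STZ at 60 min, 0.05 and -0.30, were smaller in size than the smallest change among the listed phosphatases, which was 1.03. The listed genes were chosen for large changes, so this difference in size follows from the choice.

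Rows with identifier numbers next to STZ were also followed. Of the 5 identifiers on each side of BnaA09g27780D, 6 of 10 had enough counts to be tested, and their log2 fold changes at 15 min ran from -0.44 to 0.14 with a median of -0.04. The lowest, BnaA09g27800D, was named after its value was seen and had a standard error of 0.59, against 0.11 for the STZ copy. Of the 10 around BnaC05g21480D, 4 were tested, and theirs ran from -0.10 to 0.18 with a median of 0.03. Of these 10 tested genes, 0 were called at 15 min by edgeR or DESeq2, and 0 had an unadjusted p under 0.05 in edgeR. Over all genes tested, edgeR called 0.0359% lower and 0.395% higher, and 5.54% had such a p. Counts of 0 among 10 genes therefore say little. At 60 min each tool called 3 of the 10, where edgeR called 10.6% of all genes lower and 15.2% higher, and DESeq2 called 15.3%. The numbers are taken here as labels of the rows, since no gene positions were used.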

How the data were processed

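RNA-seq libraries of 9 guard cell protoplast samples were analysed, 3 per group. Per the study's methods, the authors used TopHat2 to place single-end reads on the genome of the Darmor line and HTSeq to count those that fitted a single gene. They deposited the resulting raw counts, which are not normalized. Tool versions and the strand setting of the counting are not given in the sources used here, so overlapping or antisense genes cannot be told apart from STZ.

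Counts were filtered with filterByExpr (52881 of 101040 genes kept, both STZ genes among them), scaled by TMM and fitted with edgeR 4.0.16 under R 4.3.3 in a model of all 9 samples, with treatment and, as in the study's methods, replicate number as terms. The quasi-likelihood test was used with Benjamini-Hochberg adjustment over all genes tested and a threshold of 0.05. Standard errors were derived from the log2 fold change and the F statistic (its size over the root of F). Ratios within a replicate number are differences of log2 CPM values (prior count 2). The ratio of the copies was tested in Python 3.11.15 with an exact permutation test. The scripts were tested on simulated data.

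Samples with the same number deviated together from their group means (r from 0.715 to 0.851, against -0.588 to -0.156 for other pairs), so the numbers pair the samples. Libraries of a group differed by far more than sampling noise (chi-square per degree of freedom of at least 109). Samples are pools of preparations, and replicate number was a block in the fit and in the permutation test. Those p-values therefore rest on how consistent the treatment differences were within replicate numbers, not on the spread between pools of a group. Only with no replicate block were differences set against the spread between pools. Total counts per library ranged from 88051359 to 123968001, and TMM factors from 0.812 to 1.202.

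The STZ genes and the gene lists were chosen with earlier results of these data known. Named genes are the STZ genes, the 5 genes with the highest Pearson r to their mean profile (and the closest for each copy), the 5 genes the study listed beside STZ, and the largest called rise and fall of each pathway list. A planned list of other zinc finger genes was not made, because 3347 identifiers matched a RefSeq table of the Da-Ae assembly, which gives no gene descriptions, and 0 of the 2 STZ genes were among them. Alternatives were RLE and total count scaling, other filters on low counts, DESeq2 1.42.0, no replicate block, fits restricted to a pair of groups, and omission of each replicate number in turn.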

Additional observations from a re-analysis of the deposited data

How the results depend on the processing

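Over 10 alternatives, the log2 fold change at 15 min was below 0 in 10 of 10 for both STZ copies, from -0.57 to -0.31 for BnaA09g27780D and from -0.70 to -0.37 for BnaC05g21480D, with the value nearest 0 without replicate 3. The adjusted p of each copy at 15 min was under 0.05 in 3 of the 10, which were DESeq2's Wald test, no filter on low counts and a fit of the 2 groups compared. The values there were -0.4476, -0.443 and -0.4538 for BnaA09g27780D and -0.5482, -0.5437 and -0.559 for BnaC05g21480D, in that order. With total count scaling the values at 60 min moved to -0.2482 for BnaA09g27780D and -0.5944 for BnaC05g21480D, and the median of all genes moved to -0.321. The value of BnaC05g21480D between 15 and 60 min ranged from -0.0058 with that scaling to 0.40 without replicate 1. At 60 min the adjusted p of BnaC05g21480D was under 0.05 with total count scaling and without replicate 3, and its value without 1 replicate ran from -0.4039 to -0.1877. Between 15 and 60 min BnaA09g27780D was not called with total count scaling, at 0.2394, or with no replicate block, at 0.4992, and was called in the other 8 alternatives. The copy was chosen for this pattern, so those calls do not support it.

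The number of genes called at 15 min against mock was 228, and 584 with no filter on low counts, 521 with DESeq2, 5 with no replicate block, 898 with a fit of the 2 groups compared and 5 to 278 without 1 replicate. At 60 min against mock it was 13616, and 27370 with total count scaling, 895 with no replicate block and 5818 to 10811 without 1 replicate. Between 60 and 15 min it was 12516, and 22807, 243 and 3637 to 10843 in the same order. With total count scaling 15.2% of the genes called at 60 min were higher, against 59% with TMM. The rise in the A09 to C05 log2 ratio from mock to 60 min was 0.3483, and 0.3331 to 0.3785 without 1 replicate. The replicate block cannot change this mean, since each replicate number holds 1 sample of every group. The exact permutation test of that ratio over the 3 groups, which tests no single step, gave p = 0.432 with no replicate block and 0.167, the smallest possible, without 1 replicate.

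The STZ comparisons are limited by 3 replicates per group. Depth was 3729 or more counts per library and copy, and the step in the A09 share from mock to 15 min in replicate 2 was within counting error at that depth.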
